A study of Mus musculus with 14 samples.

Results

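The genes described here encode SR proteins, hnRNPs and core proteins of the spliceosome. They were chosen by name, as rows whose mouse symbol starts with Srsf, Hnrnp, Sf3a, Sf3b or Snrp, without pseudogenes and with a mean normalized read count of at least 1 over the 14 libraries. Of 11288 genes in the deposited table, 47 carried such a name; 1 of them, Hnrnpa1l2-ps, is a pseudogene and was left out, and none fell under the mean of 1. The 46 members comprised 10 SR protein genes, 20 hnRNP genes, 9 genes of the SF3a and SF3b complexes and 7 Snrp genes. The annotation holds 7 further genes with these prefixes, Snrpa, Snrpd1, Snrpd2, Snrpert, Snrpf, Snrpn and Srsf12, which were not analysed here. The member nearest to the mean of 1 was Snrpe, at 1.60, followed by Snrpa1, at 2.88.

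Blood neutrophils of male C57BL/6 mice aged 7 to 10 weeks were profiled by RNA-seq of polyadenylated RNA. Cells were sorted on Ly6G (clone 1A8) after red cell lysis, and the RNA was amplified with the Ovation Single Cell kit before TruSeq library preparation. The 3 mutant groups were taken at zeitgeber time (ZT) 5, clock time 12 h: CXCR4f/f x Mrp8Cre (3 libraries), BMALf/f x Mrp8Cre (3 libraries) and CXCR2f/f x Mrp8Cre (2 libraries). Wild-type mice gave 3 libraries at ZT13, clock time 20 h, and 3 libraries at ZT5, and the last group was the reference of 4 comparisons. Mrp8 drives Cre in myeloid cells, mainly neutrophils; since all mutants carry it and the wild type is not labelled as carrying it, an effect of Cre and one of a deletion cannot be told apart. The labels do not say that the libraries of a group came from separate mice, so p-values measure the spread between these libraries.

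SR proteins bind exonic sequences through RNA recognition motifs and promote the use of nearby splice sites through domains rich in arginine and serine, whose phosphorylation by SRPK and CLK kinases controls their location and activity. The hnRNPs coat nascent transcripts and often oppose SR proteins at the same exons, while SF3a and SF3b belong to the U2 small nuclear ribonucleoprotein (snRNP) that recognises the branch point, and Sm proteins form the ring at the core of the spliceosomal snRNPs. Many genes of these families limit their own level through exons whose inclusion sends the transcript to nonsense-mediated decay, and blood neutrophils are short-lived, transcriptionally restrained cells. In GENCODE M21, a transcript classed as a target of nonsense-mediated decay was annotated for 23 of the 46 members (50%), against 30.1% of the 9794 protein-coding genes tested, and a retained intron for 35 members (76.1%) against 61.1%. The members had a median of 6 annotated transcripts, against 5. The deposited values sum over a gene's transcripts, so isoforms were not analysed here.

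The promoters of the 3 members that differed between the 5 groups in the test over all groups, Srsf5, Hnrnpa3 and Hnrnpab, are shown as the 250 bases before the RefSeq start (GRCm38.p6), each 5′ to 3′ on the gene's strand: chr12:80945249-80945498 (plus strand) for Srsf5, chr2:75659009-75659258 (plus strand) for Hnrnpa3 and chr11:51606882-51607131 (minus strand) for Hnrnpab. Capitals mark matches, on either strand, to the motifs CACGTG (E-box, the letters bound by clock factors among others), GGGCGG (GC box), CCAAT (the box bound by NF-Y), CGGAAG (the core bound by ETS factors) and TATAAA.
Srsf5: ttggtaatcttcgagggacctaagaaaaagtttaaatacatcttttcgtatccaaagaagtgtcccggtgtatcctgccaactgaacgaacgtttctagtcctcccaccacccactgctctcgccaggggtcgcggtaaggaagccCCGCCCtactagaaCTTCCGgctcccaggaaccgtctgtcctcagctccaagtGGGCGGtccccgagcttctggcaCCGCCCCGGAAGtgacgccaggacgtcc
Hnrnpa3: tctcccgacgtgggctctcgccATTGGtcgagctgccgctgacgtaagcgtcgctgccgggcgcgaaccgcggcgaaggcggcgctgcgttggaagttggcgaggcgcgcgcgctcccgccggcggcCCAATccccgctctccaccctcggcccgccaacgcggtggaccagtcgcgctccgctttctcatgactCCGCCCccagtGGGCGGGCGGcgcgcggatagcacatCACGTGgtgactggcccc
Hnrnpab: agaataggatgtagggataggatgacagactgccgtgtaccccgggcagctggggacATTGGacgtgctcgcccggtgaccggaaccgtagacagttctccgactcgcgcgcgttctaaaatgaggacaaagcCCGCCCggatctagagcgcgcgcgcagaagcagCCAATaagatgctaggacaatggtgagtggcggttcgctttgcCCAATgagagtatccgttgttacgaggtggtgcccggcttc
All 3 windows held GGGCGG, with 3 matches in Srsf5, 3 in Hnrnpa3, of which a pair overlapped, and 1 in Hnrnpab. CCAAT had 2 matches in Hnrnpa3 and 3 in Hnrnpab, CGGAAG had 2 in Srsf5, CACGTG had 1 in Hnrnpa3, and TATAAA had no match in the 3 windows. RefSeq windows were found for 41 of the 46 members, 54 windows in all, since a gene may have several starts. GGGCGG was in 72.2% of these windows, against 32.7% of all 32851 windows and 56.0% of the windows of genes tested. CGGAAG was in 51.9% of the members' windows, against 13.6% of all windows and 25.6% of those of genes tested. For CCAAT these shares were 46.3%, 33.9% and 35.0%, for CACGTG 5.56%, 6.02% and 8.38%, and for TATAAA 7.41%, 12.4% and 6.65%. A match describes the letters of the window and does not show that a factor binds there.

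Levels of the members spanned more than 2 orders of magnitude. Per kilobase of merged exons, the highest mean normalized read counts over the 14 libraries were those of Srsf5 (155), Hnrnpf (129), Hnrnpul2 (64.1), Hnrnpa2b1 (54.3), Hnrnph2 (52.6) and Sf3b1 (49.2). At the other end stood Snrpe (1.16), Sf3b5 (0.981) and Snrpa1 (0.907). Transcripts of the Sm and other Snrp proteins were low as a group: none of the 7 averaged more than 14.3 normalized read counts, and Snrpa1 was at 0 in 5 libraries, and Snrpe and Snrpg in 4 libraries each. The group means of a member differed by a median factor of 1.48 for the hnRNPs and 2.05 for the SR proteins, taking the highest group over the lowest.

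Some libraries stood apart. WT ZT5 replicate 5 had the highest value of all 14 libraries for 24 of the 46 members, and the members made up 0.839% of its values, against 0.454% to 0.650% in the other 13. Its summed level of the 15 B cell markers measured (of 16 listed) was 4213, against 533 and 1159 in the other WT ZT5 libraries, and 124 to 464 in all other groups. The 11 monocyte markers measured (of 12 listed) summed to 1191 to 2082 in WT ZT5 and to 675 to 1037 elsewhere. The 15 neutrophil markers, all measured, summed to 40888 to 56412 in Cxcr4 mutants. In the BMALf/f x Mrp8Cre and CXCR2f/f x Mrp8Cre groups they summed to 22475 to 24689 and 23129 to 28000. In WT ZT13 the sums were 16800 to 17544, and in WT ZT5 10181 to 18382. Not every neutrophil marker followed its sum. In Cxcr4 mutants against WT ZT5, 10 of the 15 were called higher and 3 had a log2 fold change below 0. Erythroid markers summed to 4187 to 13964 in Cxcr4 mutants and to 21456 to 119579 in the other libraries. In bulk samples, fewer cells of a type and less RNA per cell cannot be told apart. Cxcr4 itself was at 26.2, 13.2 and 17.9 in the Cxcr4 mutants, against 268 to 653 elsewhere. Arntl, which encodes BMAL1, was at 4.37, 0 and 0 in the BMALf/f x Mrp8Cre libraries and 12.7, 5.28 and 2.68 in WT ZT5, but it was also at 0 in 4 of the other 8 libraries. Cxcr2 was at 1354 and 1439 in the CXCR2f/f x Mrp8Cre libraries, below the 1642 to 2377 of every other library except WT ZT5 replicate 5, at 1321.5. Neither gene was as far below the other libraries as Cxcr4 in its mutants, and these groups are called BMAL-labelled and CXCR2-labelled. Recovered reads ranged from 4082276 to 6678645 per library.

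**Figure D1:**
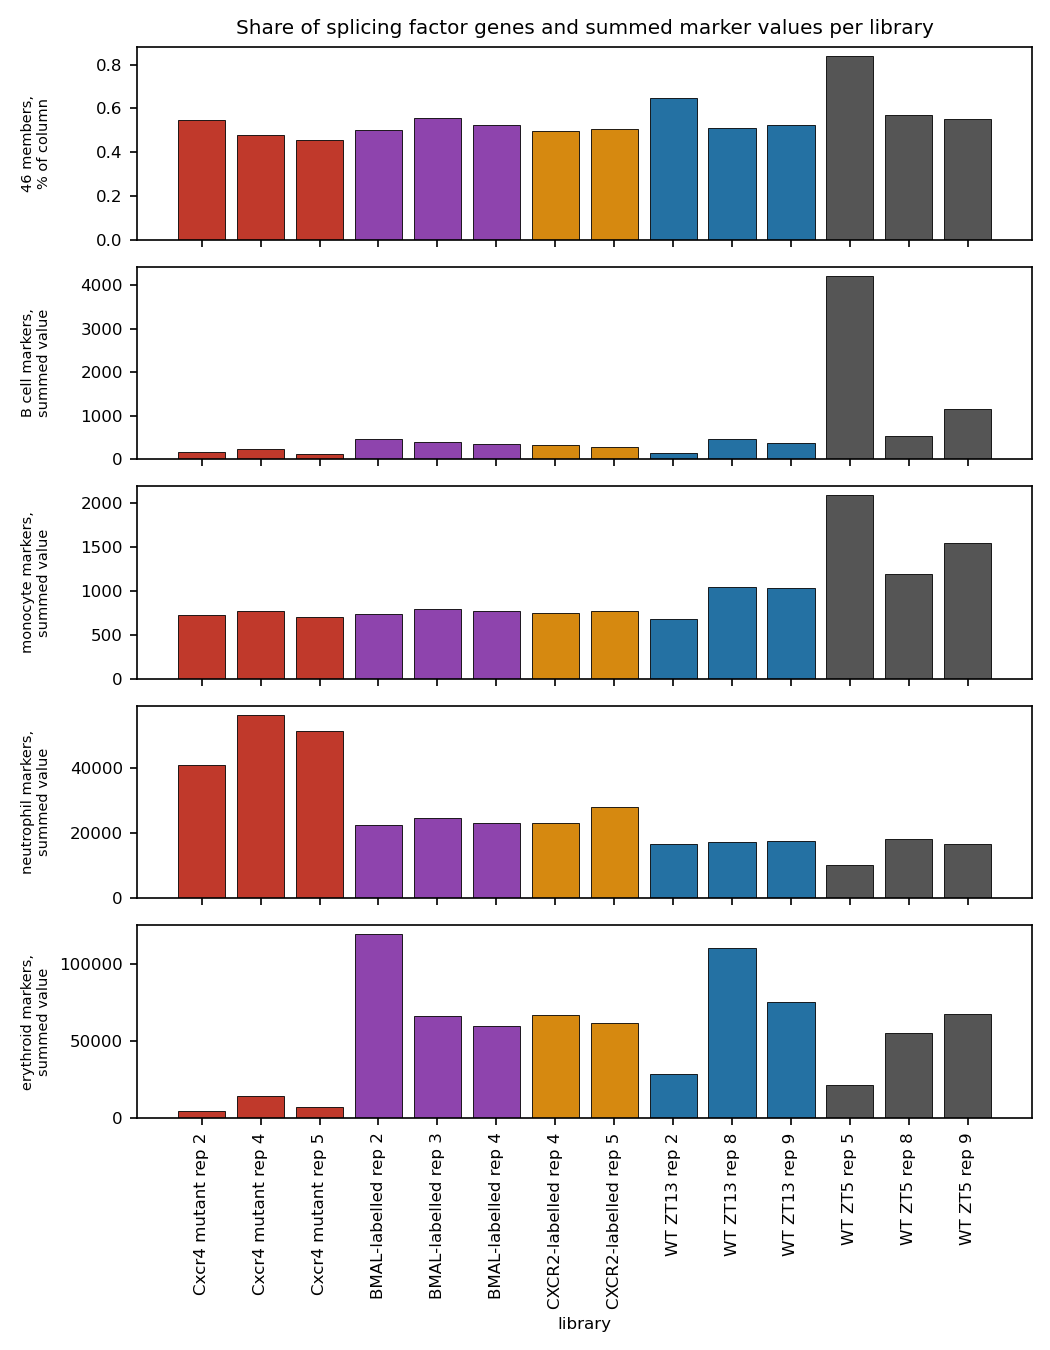
Each bar is 1 library; the panels give the share of the 46 members in all values of the library and the summed normalized read counts of B cell, monocyte, neutrophil and erythroid markers. WT ZT5 replicate 5 holds the highest member share (0.839%) and the highest B cell sum (4213), and the Cxcr4 mutants the highest neutrophil sums.

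Across the 5 groups, 3 members differed in a moderated F-test by limma with Benjamini-Hochberg adjustment over all genes tested: Srsf5 (adjusted p = 0.00628), Hnrnpa3 (adjusted p = 0.0143) and Hnrnpab (adjusted p = 0.0458). The same test called 7.85% of all 11255 genes tested, so 3 of 46 is near the background. Of the 46 members, 25 had their highest group mean in WT ZT5, 19 had their lowest in the CXCR2-labelled libraries and 15 in the Cxcr4 mutants. The matching counts over all genes are not given here, so these do not show a trait of the members. WT ZT5 replicate 5 alone held the highest value for 24 members, and the CXCR2-labelled means rest on 2 libraries. No member was called without Cxcr4 mutant replicate 4, only Hnrnpa3 without Cxcr4 mutant replicate 5, and only Srsf5 without WT ZT5 replicate 5. Calls among all genes fell as well, from 883 of 11255 with all libraries to 604 without Cxcr4 mutant replicate 4. They were fewer still without Cxcr4 mutant replicate 5, and 780 without WT ZT5 replicate 5.

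**Figure D2:**
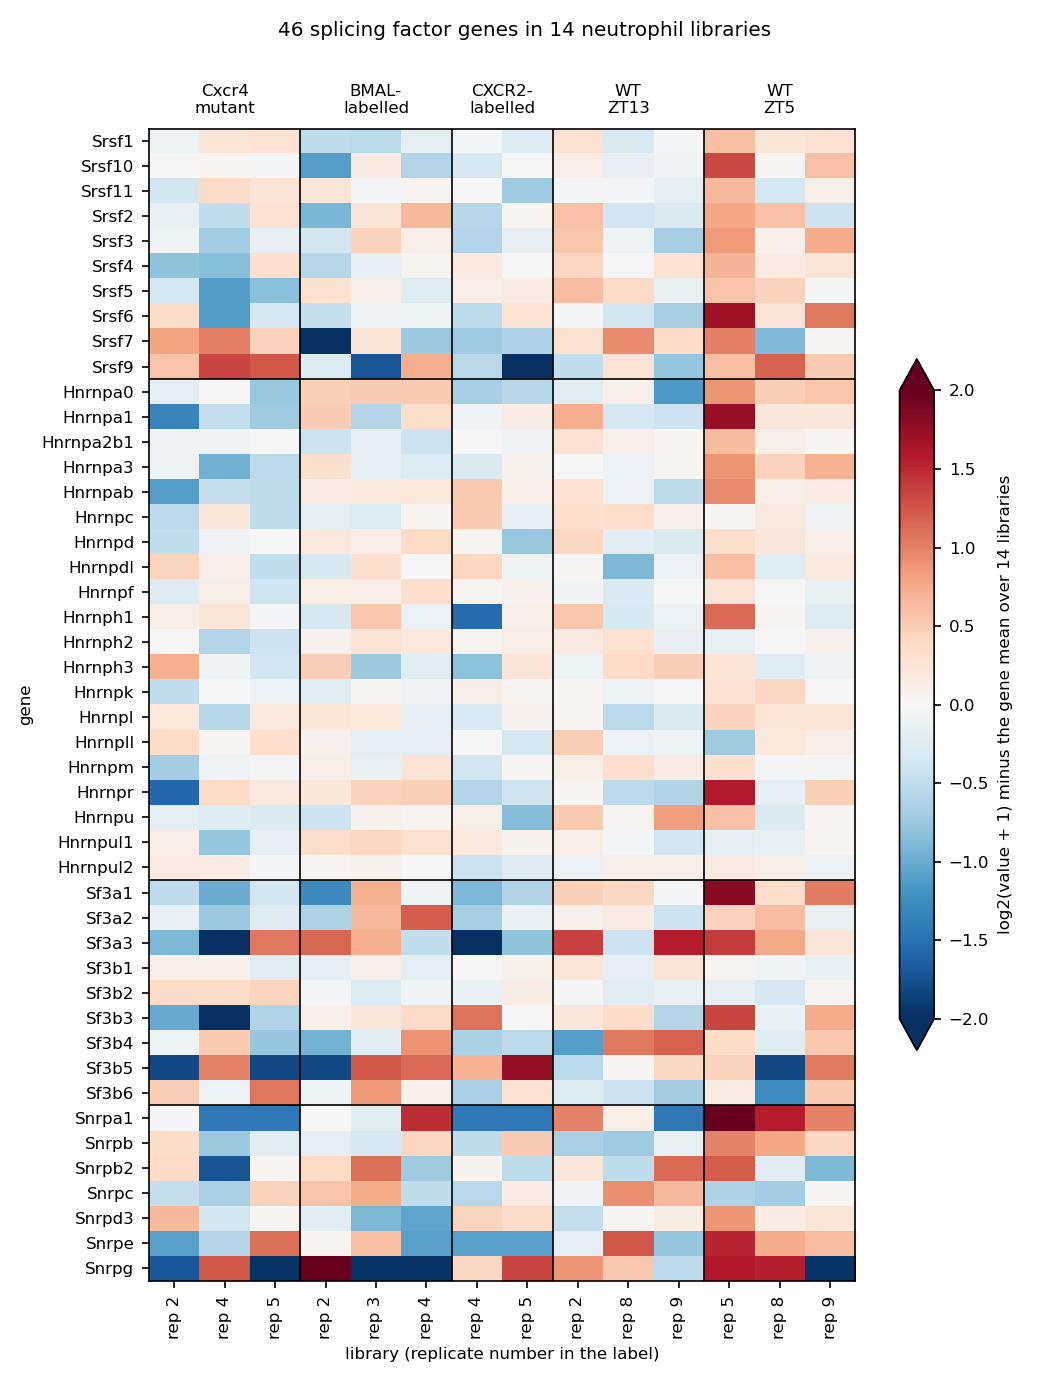
Colour gives log2(normalized read count + 1) of each of the 46 members (rows, by family) in each of the 14 libraries (columns, by group), minus the member's mean over the libraries; the scale is limited at -2 and 2. The column of WT ZT5 replicate 5 is red for most members, and Srsf5 is lowest in the 3 Cxcr4 mutant libraries.

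The comparison of Cxcr4 mutants with WT ZT5, both sampled at midday, gave the most calls among the members. In the mutants 6 members were lower than in WT ZT5 and 0 were higher: the SR genes Srsf5 and Srsf6, the hnRNP genes Hnrnpa3, Hnrnpab and Hnrnpa1, and the SF3b gene Sf3b3. They fell to between 0.268 and 0.469 times the WT ZT5 level on the log2(value + 1) scale. In the background of all genes tested, 4.15% were called lower and 4.05% higher, against 13% and 0% of the members. The median log2 fold change was -0.39 over the members and -0.11 over all genes, and 37 of 46 members (80.4%) lay below 0, against 55.7% of all genes. Some of the markers measured were called lower in Cxcr4 mutants than in WT ZT5: 11 of 15 for B cells, 7 of 11 for monocytes and 9 of 11 for erythroid cells. Called higher were 10 of 15 for neutrophils and 1 of 11 for monocytes. The latter was Ly6c2, at 265, 320 and 280 in Cxcr4 mutants against 37.6, 32.1 and 33.2 in WT ZT5. The part of these markers in the members' differences was not tested. Without WT ZT5 replicate 5, 2 of the 6 remained called, Srsf5 and Hnrnpa3 (4.35% of members lower, against 2.78% of all genes), and the members' median was -0.30, against -0.09 for all genes.

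Srsf5 (ENSMUSG00000021134, chromosome 12, 80945504 to 80950507, GRCm38) encodes the SR protein SRp40. Its normalized read counts were 457, 271 and 326 in the Cxcr4 mutants, 721, 634 and 493 in the BMAL-labelled, 644 and 658 in the CXCR2-labelled, 902, 762 and 529 in the WT ZT13 and 874, 804 and 569.8 in the WT ZT5 libraries. The 3 Cxcr4 mutant libraries lay below each of the other 11, and the other groups overlapped. The log2 fold change against WT ZT5 was -1.10 (SE 0.22, limma adjusted p = 0.00166), and it was -0.98 without WT ZT5 replicate 5 (limma adjusted p = 0.00621). Srsf5 was called in each of the 15 alternatives run for this comparison. The annotation holds 1 pseudogene copy of Srsf5 with at least 90% identity over at least 200 bases. Its best identity was 99.01%, and it is not a row of the table. How reads were divided between gene and copy is not known, so the value of Srsf5 is uncertain in this respect.

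Srsf6, an SR gene whose product is SRp55, was at 41.3, 14.2 and 25.1 in the Cxcr4 mutants, against 106, 38.2 and 67.2 in WT ZT5 libraries (a log2 fold change of -1.36 with SE 0.43, limma adjusted p = 0.0476). Here the groups overlapped, the first WT ZT5 value, that of replicate 5, stood highest, and the means of the BMAL-labelled, CXCR2-labelled and WT ZT13 groups, at 27.8, 30.4 and 25.1, were near that of the Cxcr4 mutants, 26.9. The call was lost without any of 4 libraries, with limma adjusted p = 0.277 and 0.122 on leaving out WT ZT5 replicates 5 and 9 in turn, and 0.238 and 0.109 for Cxcr4 mutant replicates 4 and 5. Of the other SR genes, Srsf3, whose product also takes part in export of messenger RNA, was at 96.5, 62.9 and 91.5 against 186, 111 and 173 without overlap, and did not pass (log2 fold change -0.89, adjusted p = 0.0678). Srsf3 has 4 pseudogene copies by the criterion used for Srsf5, 1 of them a row of the table, and is uncertain for the same reason. Srsf1, the classical SR protein SF2/ASF, was at 92.9 ± 13.01 against 110.4 ± 15.3 (SD, n = 3 each), a log2 fold change with a 95% interval of -0.75 to 0.26. Srsf2, at 18.5 ± 5.33 against 26.1 ± 10.4, and Srsf7, at 14.8 ± 2.99 against 10.04 ± 6.97, had wider intervals, -1.49 to 0.63 and -0.80 to 2.21.

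Hnrnpa3 (ENSMUSG00000059005, chromosome 2, 75659261 to 75669407), of the A/B class of hnRNPs, had the smallest p of the members. It was at 142, 77.9 and 106 in the Cxcr4 mutants, 190.5, 137 and 126 in the BMAL-labelled, 125 and 160.3 in the CXCR2-labelled, 154, 141 and 155 in the WT ZT13 and 281, 210.1 and 248 in the WT ZT5 libraries. All 3 WT ZT5 libraries lay above the other 11. The log2 fold change in Cxcr4 mutants over WT ZT5 was -1.21 (SE 0.23, limma adjusted p = 0.00113), and it was -1.11 without WT ZT5 replicate 5 (limma adjusted p = 0.00586). The gene has 34 pseudogene copies in the annotation with at least 90% identity over at least 200 bases, 3 of them rows of the table, so its value depends on how reads were divided between them and is uncertain.

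Hnrnpab (ENSMUSG00000020358, chromosome 11, 51600100 to 51606847), whose product CBF-A binds single-stranded DNA as well as RNA, was at 47.5, 74.9 and 71.8 in the Cxcr4 mutants, 115, 119 and 119 in the BMAL-labelled, 148 and 111 in the CXCR2-labelled, 126, 95.3 and 72.1 in the WT ZT13 and 199, 112 and 114 in the WT ZT5 libraries. The Cxcr4 mutants lay below the other groups except WT ZT13, with which they overlapped. Against WT ZT5 the log2 fold change was -1.09 (SE 0.27, limma adjusted p = 0.0100); the adjusted p was 0.0812 without WT ZT5 replicate 5 and 0.0713 without Cxcr4 mutant replicate 2. No pseudogene copy was found for it, but its exons overlap those of Phykpl on the other strand, and the sources used here do not say whether counting used strand.

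Hnrnpa1 (ENSMUSG00000046434, chromosome 15, 103240432 to 103246692), an abundant splicing repressor in most cells, was at 16.4, 30.1 and 25.5 in the Cxcr4 mutants, against 145, 50.03 and 49.9 in WT ZT5, of which the highest was replicate 5. The groups did not overlap (log2 fold change -1.57, SE 0.42, limma adjusted p = 0.0176), and the adjusted p was 0.174 without WT ZT5 replicate 5 and 0.0901 without Cxcr4 mutant replicate 2. It has 17 pseudogene copies by the same criterion, 2 of them in the table, and is uncertain for the same reason. The relative Hnrnpa2b1, a reader of RNA sequence that also sorts microRNAs into exosomes, was at 336, 335 and 352 against 548, 377 and 360.1, not overlapping, with a log2 fold change of -0.30 that did not pass (adjusted p = 0.368).

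Among the other hnRNPs, Hnrnpk, which binds poly(C) stretches, was at 246 ± 42.3 against 332 ± 47.03, and Hnrnpl, which binds CA repeats, at 122 ± 34.04 against 154 ± 14.3; neither passed (adjusted p = 0.161 and 0.424). Hnrnpll, known from T cells as a regulator of Ptprc (CD45) splicing, was at 182 ± 22.8 against 146 ± 46.2 (log2 fold change 0.37, adjusted p = 0.434). Hnrnpc, whose product binds uridine tracts, was at 114 ± 36.5 against 137 ± 13.7, and Hnrnpu, a scaffold protein of the nucleus, at 60.1 ± 2.55 against 79.3 ± 25.3, with 95% intervals of the log2 fold change of -0.80 to 0.19 and -0.97 to 0.27. In all, 17 of 20 hnRNP genes had a log2 fold change below 0, where 55.7% of all genes tested did. Of the 20, 8 had Cxcr4 mutant values entirely below those of WT ZT5, as did 14.1% of all genes tested.

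The SF3 genes held 1 of the 6 calls. Sf3b3 (ENSMUSG00000033732, chromosome 8, 110810239 to 110846787), the large scaffold subunit of SF3b, was at 10.99, 4.48 and 14.9 in the Cxcr4 mutants, 25.1, 27.2 and 30.6 in the BMAL-labelled, 50.5 and 23.2 in the CXCR2-labelled, 27.2, 30.2 and 15.1 in the WT ZT13 and 59.99, 21.1 and 39.3 in the WT ZT5 libraries. The mutants lay below each of the other 11 libraries, by little in the case of WT ZT13. The log2 fold change against WT ZT5 was -1.90 (SE 0.49, limma adjusted p = 0.0147); the adjusted p was 0.113 without WT ZT5 replicate 5, 0.0985 without Cxcr4 mutant replicate 4 and 0.0555 without WT ZT5 replicate 9. Its exons overlap those of Cog4 on the other strand.

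Sf3b2, the SF3b subunit that contacts the pre-mRNA near the branch point, was the member with the smallest p in the upward direction. It was at 304, 299 and 316 in the Cxcr4 mutants, above each of the other 11 libraries, which ranged from 184 to 259, and WT ZT5 had 208, 184 and 243. Its log2 fold change of 0.54 (SE 0.18) missed the threshold in limma (adjusted p = 0.0678) and passed in DESeq2. Sf3b1, the subunit that encloses the branch point adenosine and the most abundant SF3 transcript here, was at 597, 593 and 475 against 580.2, 538 and 506, with a 95% interval of the log2 fold change of -0.33 to 0.38. Sf3a1, of the SF3a complex, was at 10.4, 7.12 and 11.5 against 55.5, 19.6 and 31.9 without overlap, and did not pass (log2 fold change -1.68, adjusted p = 0.0687). Sf3b6, the branch point protein p14, was at 13.03 ± 5.65 against 8.35 ± 4.91 (adjusted p = 0.647).

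None of the 7 Snrp genes passed in edgeR, DESeq2 or limma with equal library weights in this comparison. In limma, 1 had an unadjusted p under 0.05 (all genes tested: 11.8% lower at that p), Snrpa1, the U2 protein A′, which passed with array weights. It was at 1.60, 0 and 0 in the Cxcr4 mutants, against 11.7, 6.97 and 4.33 in WT ZT5 (adjusted p = 0.0592). Snrpb, which encodes the Sm proteins B and B′, was at 16.6, 7.12 and 10.8 against 26.2, 22.2 and 17.3 without overlap (log2 fold change -0.93, adjusted p = 0.386). Read numbers this low limit what could be detected. Over the whole set, 14 members had Cxcr4 mutant values entirely below those of WT ZT5 (30.4%, against 14.1% of all genes tested) and 1, Sf3b2, entirely above (12.1% of all genes tested).

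**Figure D3:**
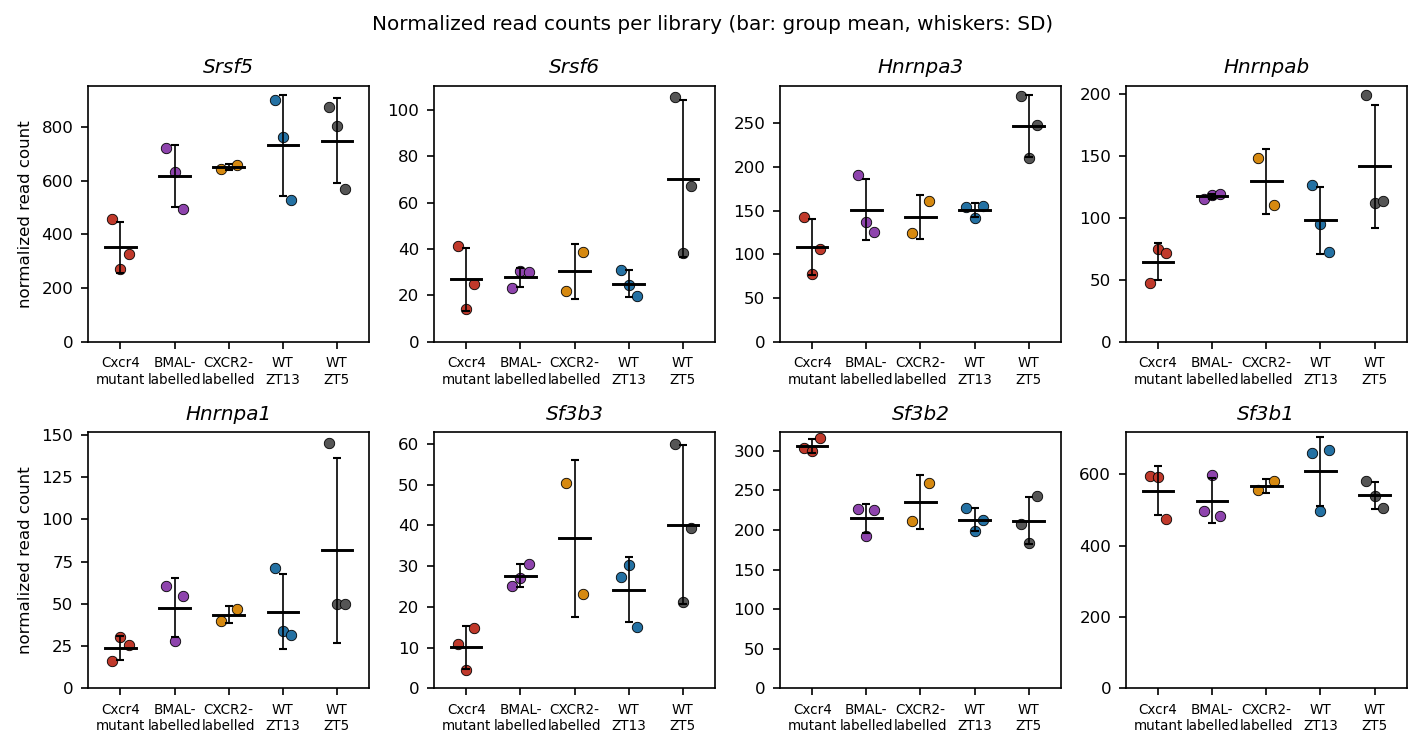
Points are normalized read counts of single libraries for the 6 members called lower in Cxcr4 mutants against WT ZT5 and for Sf3b2 and Sf3b1; bars are group means and whiskers SD (n = 3, n = 2 for CXCR2-labelled). Srsf5 and Sf3b3 are lowest, and Sf3b2 highest, in the 3 Cxcr4 mutant libraries, and Hnrnpa3 is highest in WT ZT5.

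**Figure D4:**
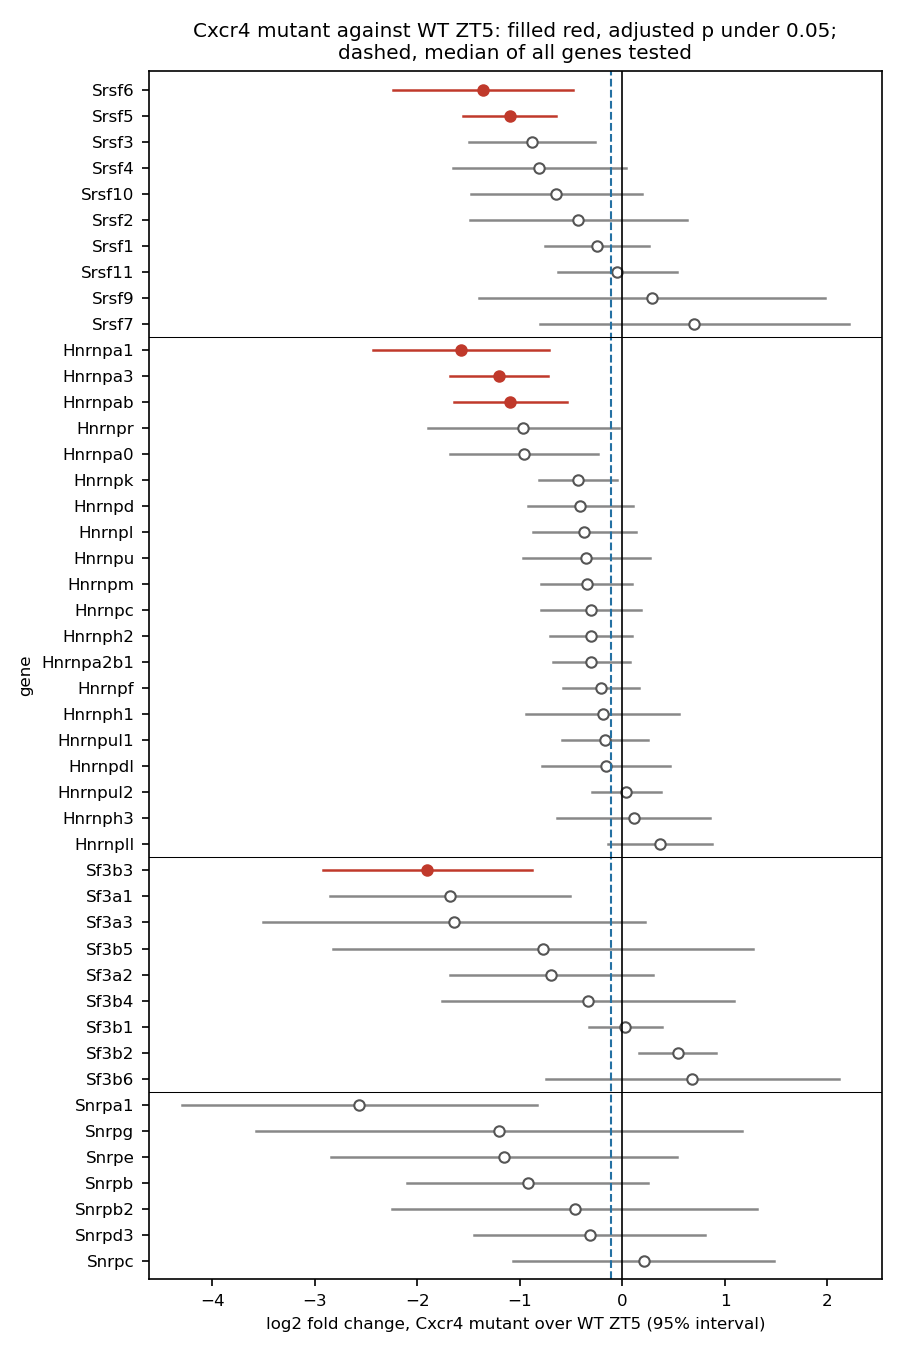
Log2 fold changes of the 46 members in Cxcr4 mutants over WT ZT5, by family, with 95% intervals from limma; filled red points have an adjusted p under 0.05 and the dashed line is the median of all genes tested (-0.11). The 6 called members lie between -1.90 and -1.09, and 37 of 46 points lie left of 0.

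The Cxcr4 mutants were also set against the other mutants, which share the Cre and the sampling time and do not involve the WT ZT5 libraries except in the estimate of the spread. Srsf5 was the member called in each of these comparisons. It was lower in Cxcr4 mutants than in BMAL-labelled libraries, at -0.83 on the log2 scale with SE 0.22 and a limma adjusted p = 0.022, where 1 of 46 members and 5.7% of all genes tested were called. It was also lower than in CXCR2-labelled libraries, with -0.92 (SE 0.25, limma adjusted p = 0.0276), where again 1 of 46 members and 4.13% of all genes were called. These counts are below the background share. Neutrophil marker sums were higher in the Cxcr4 mutants than in each of these groups, although not every marker was: 8 of 15 were called higher and 1 lower against BMAL-labelled, and 7 higher and 2 lower against CXCR2-labelled. B cell and erythroid sums were lower, and the 8 platelet markers summed to 199 to 295 in the Cxcr4 mutants, against 475 to 601 in BMAL-labelled and 457 to 618 in CXCR2-labelled libraries. The part of these markers in the result was not tested. The call against BMAL-labelled was lost without BMAL-labelled replicate 2 (adjusted p = 0.1195), BMAL-labelled replicate 3 (0.0834), Cxcr4 mutant replicate 4 (0.146) or Cxcr4 mutant replicate 5 (0.0861). That against CXCR2-labelled was lost without either CXCR2-labelled library (0.170 without replicate 4, 0.167 without replicate 5) and without Cxcr4 mutant replicate 4 (0.147) or 5 (0.0930). In edgeR, adjusted p was 0.0521 against BMAL-labelled and 0.0641 against CXCR2-labelled, and DESeq2 called Srsf5 in both.

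No other member passed. Hnrnpab had a log2 fold change of -0.88 against BMAL-labelled (adjusted p = 0.052) and -1.001 against CXCR2-labelled (adjusted p = 0.0583), with no overlap in either case. Sf3b3 had -1.49 and -1.80 (adjusted p = 0.0764 and 0.0672), also with no overlap. Hnrnpul1, related to the scaffold protein HNRNPU, was at 348, 185 and 283 in Cxcr4 mutants and 404, 422 and 393 in BMAL-labelled libraries (adjusted p = 0.0732), and Hnrnph2, which binds G-rich sequences, had -0.42 against CXCR2-labelled (adjusted p = 0.349). In the upward direction, Sf3b2 had 0.52 and 0.39 (adjusted p = 0.106 and 0.352). Srsf7 and Srsf1 had 1.65 and 0.55 against BMAL-labelled (adjusted p = 0.211 and 0.218). Srsf9, a low SR gene, was at 8.39, 14.9 and 13.95 in Cxcr4 mutants, 4.20, 0.930 and 9.39 in BMAL-labelled and 3.31 and 0 in CXCR2-labelled libraries (adjusted p = 0.346 and 0.111). Hnrnpul2 and Hnrnph1 had 0.44 and 0.82 against CXCR2-labelled (adjusted p = 0.2 and 0.309). The members' median log2 fold change was -0.16 against BMAL-labelled (all genes 0.02) and 0.03 against CXCR2-labelled (all genes 0.00).

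The BMAL-labelled libraries were set against WT ZT5 at the same hour; BMAL1 is an activator of the circadian clock. No member was called in limma (1.02% of all genes tested were) or edgeR; DESeq2 called 1, Hnrnpa2b1. At an unadjusted p under 0.05 in limma, 7 members were lower and 1 higher, where 8.56% and 4.92% of all genes tested were; without WT ZT5 replicate 5, 3 were lower and 0 higher, where 4.94% and 3.14% were. Hnrnpa2b1 was at 265, 307 and 265 in BMAL-labelled libraries, below each WT ZT5 library (548, 377 and 360.1), and its log2 fold change was -0.59 with SE 0.18 and a limma adjusted p = 0.116. Srsf1 was at 59.01, 57.5 and 72.9 against 128, 99.9 and 103, also without overlap (-0.80, adjusted p = 0.124). Hnrnpa3, at -0.72, and Srsf10, an SR-like protein that represses splicing when dephosphorylated, at -1.15, had adjusted p of 0.143 and 0.18. Upward, Hnrnpul1 was at 404, 422 and 393 against 278, 285 and 329 (0.45, adjusted p = 0.327), and Snrpc of the U1 snRNP, Hnrnph2 and Hnrnpf had 0.69, 0.21 and 0.17 with adjusted p of at least 0.694. All 10 SR genes had a log2 fold change below 0 (56.4% of all genes tested did), and their median was -0.70. Without WT ZT5 replicate 5, 9 were below 0 and their median was -0.45. The median over all members was -0.25, against -0.10 for all genes, and without WT ZT5 replicate 5 it was -0.07, against -0.10.

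In CXCR2-labelled libraries, no member was called against WT ZT5 in limma (0.666% of all genes tested were) or edgeR, and DESeq2 called 1, Snrpa1. At an unadjusted p under 0.05 in limma, 13 members were lower, where 8.25% of all genes tested were, and 0 higher, where 5.24% were. The 13 became 6 without WT ZT5 replicate 5, where 5.21% of all genes were lower. Without CXCR2-labelled replicate 4, which leaves a single library in that group, the members' median log2 fold change was -0.32, against -0.04 for all genes. Snrpa1 was at 0 in both CXCR2-labelled libraries, against 11.7, 6.97 and 4.33 in WT ZT5 (limma adjusted p = 0.125). If a library at 0 is set to a floor of 3 reads, it was at least 11.3-fold below the WT ZT5 mean of 7.66. Replicate 5 held the highest of these WT ZT5 values, so the factor is smaller against the other WT ZT5 libraries. Snrpe, an Sm protein gene, was likewise at 0 in both CXCR2-labelled libraries, against 5.08, 2.53 and 2.27 (limma adjusted p = 0.324). By the same floor it was at least 4.88-fold below the WT ZT5 mean of 3.29, and replicate 5 again held the highest value. Floors and counting errors treat reads as independent molecules, which PCR copies without molecular identifiers are not. Hnrnpa0, an hnRNP that binds AU-rich elements, was at 24.02 and 25.7 in CXCR2-labelled libraries, against 71.9, 54.9 and 57.3 in WT ZT5 (-1.26, limma adjusted p = 0.127). Hnrnpa3 and Sf3a1 had -0.79 and -1.81 (adjusted p = 0.15 and 0.181), and upward Sf3b5, Hnrnpul1, Sf3b2 and Hnrnph2 had adjusted p of at least 0.657. All 10 SR genes were again below 0 (54.1% of all genes tested were), with a median of -0.65, and of -0.38 without WT ZT5 replicate 5. Over all members the median was -0.42, against -0.07 for all genes, and without WT ZT5 replicate 5 it was -0.24, against -0.07. As the same 3 WT ZT5 libraries stand on the other side of each of these comparisons, their medians are not independent of each other.

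The evening and midday wild-type groups were compared to ask whether the members vary with the hour. No member was called at ZT13 against ZT5 in limma (0.08% of all genes tested were), edgeR or DESeq2, and 7 had an unadjusted p under 0.05 in limma, all lower at ZT13, where 5.83% of all genes tested were. The 7 became 3 without WT ZT5 replicate 5, where 2.91% of all genes were lower, and 3 without WT ZT13 replicate 8 or 9. For these 2 replicates in turn, 1142 and 899 of 11255 genes had an unadjusted p under 0.05 in either direction, against 1193 with all libraries. Srsf6 was at 31.1, 24.5 and 19.7 at ZT13, against 106, 38.2 and 67.2 at ZT5 (-1.36, SE 0.43, limma adjusted p = 0.197). Hnrnpa0 was at 33.00, 41.4 and 16.8 against 71.9, 54.9 and 57.3, and Hnrnpa3 at 154, 141 and 155 against 281, 210.1 and 248 (adjusted p = 0.224 and 0.225). For these 3 genes the groups did not overlap. Hnrnpl had -0.58 (adjusted p = 0.384), and upward Snrpc, Hnrnpu, Hnrnpc and Sf3b1 had adjusted p of at least 0.639. Srsf5 was at 731 ± 188 at ZT13 and 749 ± 159 at ZT5 (SD, n = 3 each), with a 95% interval of the log2 fold change of -0.50 to 0.41. The members' median was -0.26, against -0.07 for all genes, and without WT ZT5 replicate 5 it was -0.08, against -0.06. B cell and monocyte marker sums were lower in the BMAL-labelled, CXCR2-labelled and WT ZT13 groups than in WT ZT5, and their part in these medians was not tested.

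BMAL-labelled and CXCR2-labelled libraries were compared with each other as a pair of mutants with the same Cre. No member was called in limma (0.133% of all genes tested were), edgeR or DESeq2, and 4 had an unadjusted p under 0.05 in limma, all higher in BMAL-labelled, where 3.98% of all genes tested were. Hnrnpa0 was at 54.3, 55.4 and 56.2 in BMAL-labelled libraries, against 24.02 and 25.7 in CXCR2-labelled (1.12, SE 0.39, limma adjusted p = 0.41). Sf3a3 of the SF3a complex, Hnrnpd, which binds AU-rich elements, and Hnrnpul2 had 2.35, 0.60 and 0.39, with adjusted p of at least 0.569. In the other direction Snrpd3, Hnrnpa2b1, Hnrnpc and Snrpg had adjusted p of at least 0.683. The median was 0.13 over the members and -0.02 over all genes.

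**Figure D5:**
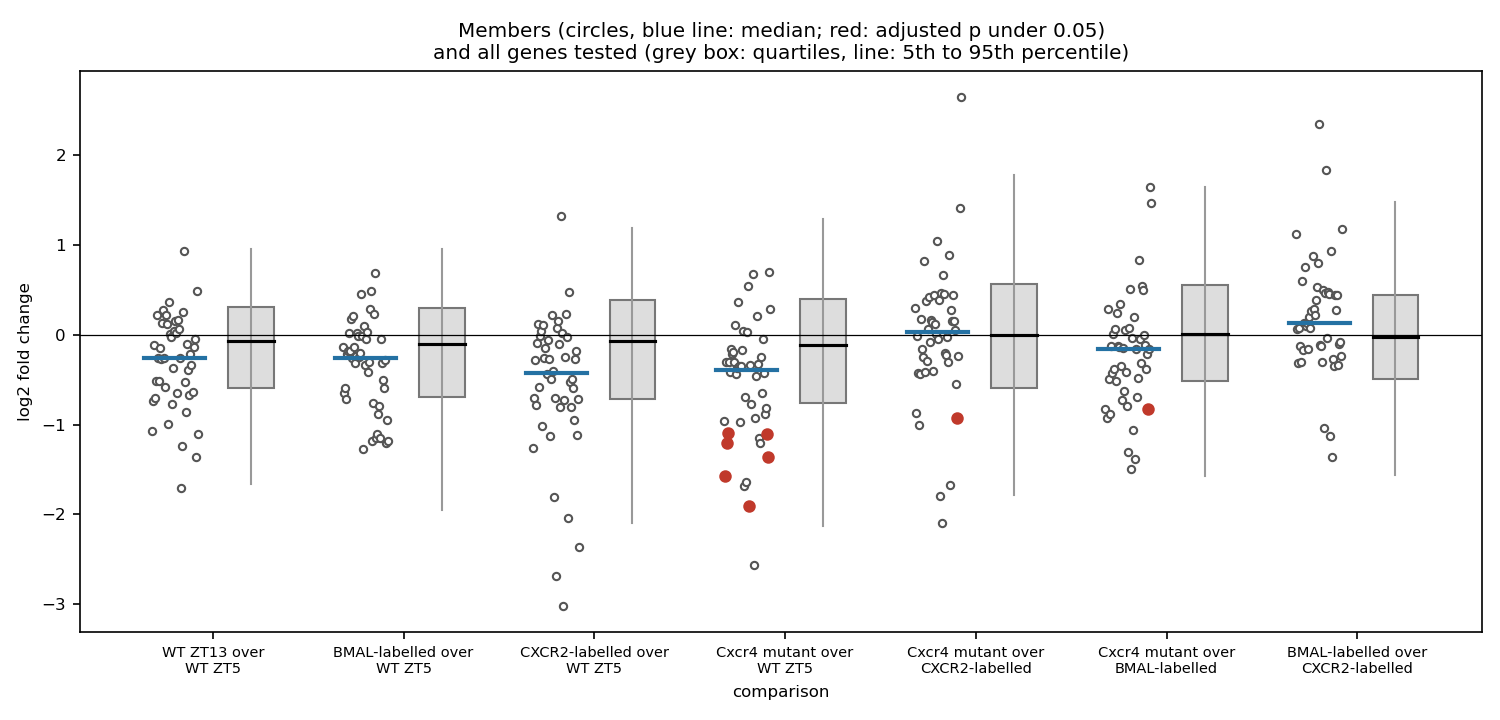
For each comparison, circles are log2 fold changes of the 46 members (red: adjusted p under 0.05; blue line: median), and the grey box gives the quartiles and median, its line the 5th to 95th percentile, of all genes tested. Medians of the members lie between -0.42 and -0.25 in the 4 comparisons with WT ZT5 and between -0.16 and 0.13 in the other 3.

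Genes that act on or with the members were read from lists chosen by role. Of 11 kinase and import genes for SR proteins tested, 1 was called in Cxcr4 mutants against WT ZT5. Srpk2, a kinase that phosphorylates SR proteins, was higher, at 306, 311 and 312 against 162, 199 and 145 (0.89, SE 0.19, limma adjusted p = 0.00375). The list's median was -0.43, and -0.23 without WT ZT5 replicate 5. Among all genes tested, 4.05% were called higher and 4.15% lower in this comparison. Among 50 SR-related and other splicing regulators tested (median -0.33, and -0.12 without that library), Rbm5 was higher, and the genes called lower included Mbnl1, Tra2b, Khsrp and Fubp1. Mbnl1, the muscleblind splicing regulator, was at 159, 145 and 118 in Cxcr4 mutants, against 349, 340.3 and 344 in WT ZT5 (-1.30, SE 0.23, limma adjusted p = 0.000569). Tra2b, which binds GA-rich exonic enhancers beside SR proteins, was at 22.6, 10.99 and 18.98 against 113, 46.4 and 40.8 (adjusted p = 0.00592). Khsrp, which promotes decay through AU-rich elements, had -0.97, Fubp1, which binds single-stranded DNA upstream of Myc, -2.12 and Rbm5 0.60 (adjusted p = 0.0186, 0.0337 and 0.0467). Of 66 other spliceosome subunits (median -0.27), 2 were lower, a smaller share than among all genes tested: Prpf19 (-1.88, adjusted p = 0.0368) and Snrnp70 of the U1 snRNP (-1.26, adjusted p = 0.0427). Without WT ZT5 replicate 5, Tra2b, Fubp1, Prpf19 and Snrnp70 were no longer called, while Srpk2, Rbm5, Mbnl1 and Khsrp were. None of these 3 lists had a call in the BMAL-labelled, CXCR2-labelled or WT ZT13 groups against WT ZT5 in limma.

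Against BMAL-labelled libraries, the Cxcr4 mutants were lower in Mbnl1 (-1.25, limma adjusted p = 0.000927) and Tra2b (-1.36, adjusted p = 0.0471), and higher in Rbm5 (0.82, adjusted p = 0.0062). The values of Mbnl1 in BMAL-labelled libraries were 336, 346 and 319, each above all 3 Cxcr4 mutant libraries.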

How the data were processed

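For the 14 libraries, the authors deposited a single table with a normalized signal per gene. Per the submitters' processing notes, CASAVA 1.8.2, cutadapt, RSEM 1.2.3 and the genome GRCm38 were used; how values were normalized is not given in the sources used. Every value was a whole number of reads times 1 constant per library (100% of values, tolerance 1e-06 reads), so reads were recovered by division for count tests. All columns with values were mapped to samples.

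Groups were compared with limma 3.58.1 (R 4.3.3), a linear model with intensity trend on log2(value + 1) over all 14 libraries and 5 groups. Genes whose mean reached 1 were tested (11255; 33 were not), with Benjamini-Hochberg adjustment over all of them and calls at 0.05. Fold changes on this scale understate those of low genes. Every adjusted p without a tool's name is limma's. The procedure was tested on simulated data. Alternatives were edgeR 4.0.16 quasi-likelihood and DESeq2 1.42.0 on recovered reads, a pseudocount of 0.1, a mean of at least 10, no filter, quantile normalization, array weights, a fit to the compared groups alone, leaving out single libraries and blocking on the replicate number.

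The members, lists and comparisons were chosen with earlier results of these data known. Members named were all those called, the 4 of smallest p in each direction per comparison, and a list of well-known ones, of the lists up to 4 genes of smallest p. In the list of regulators, Fubp1 and Rbm5 were named beyond that rule, after their values were seen. Annotation was GENCODE M21. Pseudogene copies were found with BLAST 2.17.0 among annotated transcripts, and promoters came from RefSeq. At least 1 such copy was found for 21 of the 46 members, and not each of these is named above as uncertain. Some genes of the marker and pathway lists are not reported here. Symbols were found for 11188 of 11288 identifiers.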

Additional observations from a re-analysis of the deposited data

How the results depend on the processing

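Srsf5 and Hnrnpa3 remained called lower in Cxcr4 mutants against WT ZT5 in all 15 alternatives run (highest adjusted p 0.0202 and 0.0162), Hnrnpa1 and Hnrnpab in 13, Sf3b3 in 11 and Srsf6 in 6. The count of members called there was 10 with array weights, where 1432 of 11255 genes tested were called. It was 2 to 8 with 1 library left out, where 596 to 945 genes were called. In the main fit, 6 members and 923 of 11255 genes were called there. For Cxcr4 mutants against CXCR2-labelled the count of members was 2 with a mean of at least 10 (all genes: 491 of 6629). It was also 2 with DESeq2 (all genes: 708 of 11226). It was 0 with edgeR (380 of 11255) or only the groups compared (356), and at most 1 with a Cxcr4 mutant library left out (322 to 386). For Cxcr4 mutants against BMAL-labelled it was 2 with a mean of at least 10, quantile normalization, DESeq2, only the groups compared or array weights. All genes called there were, in that order, 670 of 6629, 624 of 11255, 862 of 11226, and 648 and 701 of 11255. The count of members was 0 with edgeR (all genes: 521 of 11255) and 0 to 2 with a library left out (455 to 513). DESeq2 called 1 member in BMAL-labelled and 1 in CXCR2-labelled against WT ZT5, where 255 and 316 of 11226 genes were called. Across the 5 groups DESeq2 and array weights called 5 members, where 1222 of 11226 and 1149 of 11255 genes were called. With a library left out, 0 to 4 members were called. All genes called there were at most 963 of 11255, and at most 604 without Cxcr4 mutant replicate 4 or 5, against 883 in the main fit. With a replicate block, 5 members were called in Cxcr4 mutants against WT ZT5, 1 against CXCR2-labelled, 1 against BMAL-labelled, 4 across the 5 groups and 0 elsewhere. All genes called with a member were, in that order, 564, 432, 432 and 608 of 11255. With that block the members' median against WT ZT5 was -0.71 for Cxcr4 mutants, -0.55 for BMAL-labelled, -0.58 for CXCR2-labelled and -0.15 for WT ZT13. In that order, the median of all genes was -0.14, -0.13, -0.10 and -0.07. The deviations from group means of the 11 pairs of libraries that share a number had correlations of -0.0368 to 0.0169. For the 67 pairs with other numbers these were -0.0448 to 0.0437. Deviations within a group depend on each other, so these values cannot exclude a batch shared by number. Leaving out 1 of 2 CXCR2-labelled libraries assumes that the other varies like the rest. The cause of these changes was not tested. Without WT ZT5 replicate 5, which enters the comparisons between mutants only through the spread, 3 members were called against BMAL-labelled and 2 against CXCR2-labelled. All were lower in Cxcr4 mutants (6.52% and 4.35% of members), where 3.34% and 2.59% of all genes were called lower. In either direction, 823 and 616 of 11255 genes were called. Calls of the lists without that library were computed after seeing the data. None of the 8 log2 fold changes called for single members reversed; that of Srsf5 at ZT13 against ZT5, whose interval spans 0, was 0.08 without WT ZT5 replicate 5. The members' median in Cxcr4 mutants against CXCR2-labelled, 0.03, was below 0 in 4 alternatives. Quantile normalization moved the median of all genes against WT ZT5 by over 0.1 in 4 comparisons, for Cxcr4 mutants to 0.03, while the members' median there was -0.49. Members with few reads, the Snrp genes above all, could be tested only for large differences.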
